A study of Mus musculus with 10 samples.

Results

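Of the 25579 genes listed for mouse pro-B cells of 4 Pax5 genotypes, 63 were expressed with wild-type Pax5, had a much lower level without Pax5, and stayed within a set limit of the wild-type level when the only Pax5 protein was the R31Q mutant. They were chosen by the values themselves: a mean TPM of at least 5 in Pax5(+/+), a difference of Pax5(fl/fl) Vav-Cre from Pax5(+/+) at or under -2.5, and an absolute difference of Pax5(R31Q/-) from Pax5(+/+) under 0.6. TPM, the share of transcripts scaled to a fixed total, is a level per gene length, and each difference is that of the genotype means of log2(TPM + 1). Immunoglobulin genes were left out, which removed 18 genes that met the rule and were listed by Ensembl ID, 17 of them heavy-chain and 1 of them kappa variable segments. Because these 3 genotypes chose the members, their levels are a description, and tests were made against the Pax5(+/-) libraries, which the rule did not use. The other side of each test, Pax5(+/+) or Pax5(R31Q/-), did enter the rule, so these tests are not independent of it.

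Pax5 is the paired domain transcription factor that commits lymphoid progenitors to the B cell lineage. In pro-B cells, the stage at which the heavy-chain locus is rearranged, it activates B cell genes and represses genes of other lineages, and B cell development arrests early without it. The mutated arginine 31 lies in the paired domain, the part of the protein that contacts DNA.

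All RNA-seq libraries came from bone marrow of C57BL/6 mice, 2 per genotype. Pax5(+/+) cells carried 2 wild-type alleles, Pax5(+/-) cells 1 wild-type and 1 null allele, and Pax5(R31Q/-) cells 1 R31Q and 1 null allele. In Pax5(fl/fl) Vav-Cre mice, both alleles are floxed and Cre is driven by Vav, which is active throughout the blood system. The labels call these last cells progenitors and the others pro-B cells, and the age of the mice behind these libraries is not stated separately. The study sorted pro-B cells by surface markers, B220+ Kit+ CD2- IgM- IgD- among them, and the gate of the Pax5(fl/fl) Vav-Cre cells was not stated separately. Pax5 ChIP-seq peaks came from pro-B cells cultured short-term on OP9 stromal cells with IL-7, 1 library from Rag2(-/-) cells, which have wild-type Pax5, and 1 from Pax5(R31Q/-) cells. A label of the latter library writes Rag2 in place of Pax5, and its listed genotype was followed. The labels do not say that libraries of a genotype came from separate mice, so p-values measure only the spread between these libraries, which may be technical.

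Read numbers recovered from the TPM steps ranged from 21625407 to 34488454 per library, the lowest in Pax5(fl/fl) Vav-Cre replicate 1. Pax5 itself had 418 and 444 TPM in Pax5(+/+), 272 and 287 TPM in Pax5(+/-), 306 and 293 TPM in Pax5(R31Q/-), and 1242 and 1409 TPM in Pax5(fl/fl) Vav-Cre. Reads per gene do not show which exons they cover, so the last value does not check the label. The 15 myeloid markers summed to 3591 and 519 TPM in the Pax5(fl/fl) Vav-Cre libraries and to between 724 and 2307 TPM in the others, with none of the 15 under 1 TPM in every library. The 9 of the 10 erythroid markers that have a row in the TPM values summed to 84.9 and 24.5 TPM in Pax5(fl/fl) Vav-Cre and to between 123 and 239 TPM elsewhere, with 3 of them, all hemoglobin genes, under 1 TPM in every library. Markers of T, NK and plasma cells summed to between 26.7 and 44.4, 15.6 and 72.7, and 227 and 599 TPM per library, each highest in a Pax5(fl/fl) Vav-Cre library. The 12 pro-B markers summed to 9304 and 8890 TPM in Pax5(fl/fl) Vav-Cre and to between 14681 and 17914 TPM elsewhere. The 8 pre-B markers summed to 897 and 977 TPM in Pax5(+/+) and 804 and 685 TPM in Pax5(+/-). They summed to 439 and 397 TPM in Pax5(R31Q/-) and 380 and 662 TPM in Pax5(fl/fl) Vav-Cre. The part of other cells and of cell stage in the results was not tested, and in bulk RNA fewer cells of a type and less RNA per cell cannot be told apart.

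The 63 members were 35% of the 180 genes that met the first 2 conditions. Another 86 of the 180 had an R31Q difference at or under -1 and served as a comparison set, 27 had one between -1 and -0.6, and 4 had one at or above 0.6. The mean level of the members in Pax5(+/+) ranged from 6.63 to 989 TPM with a median of 54.7 TPM. The median mean level was 62.0 TPM with the R31Q allele and 5.16 TPM in Pax5(fl/fl) Vav-Cre. Relative to Pax5(+/+), the mean TPM of a member was between 66.1% and 141% in Pax5(R31Q/-) and between 0.109% and 17.0% in Pax5(fl/fl) Vav-Cre. All 63 had both Pax5(R31Q/-) libraries above both Pax5(fl/fl) Vav-Cre libraries, beside 43% of all genes tested, as the rule by and large requires.

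**Figure D1:**
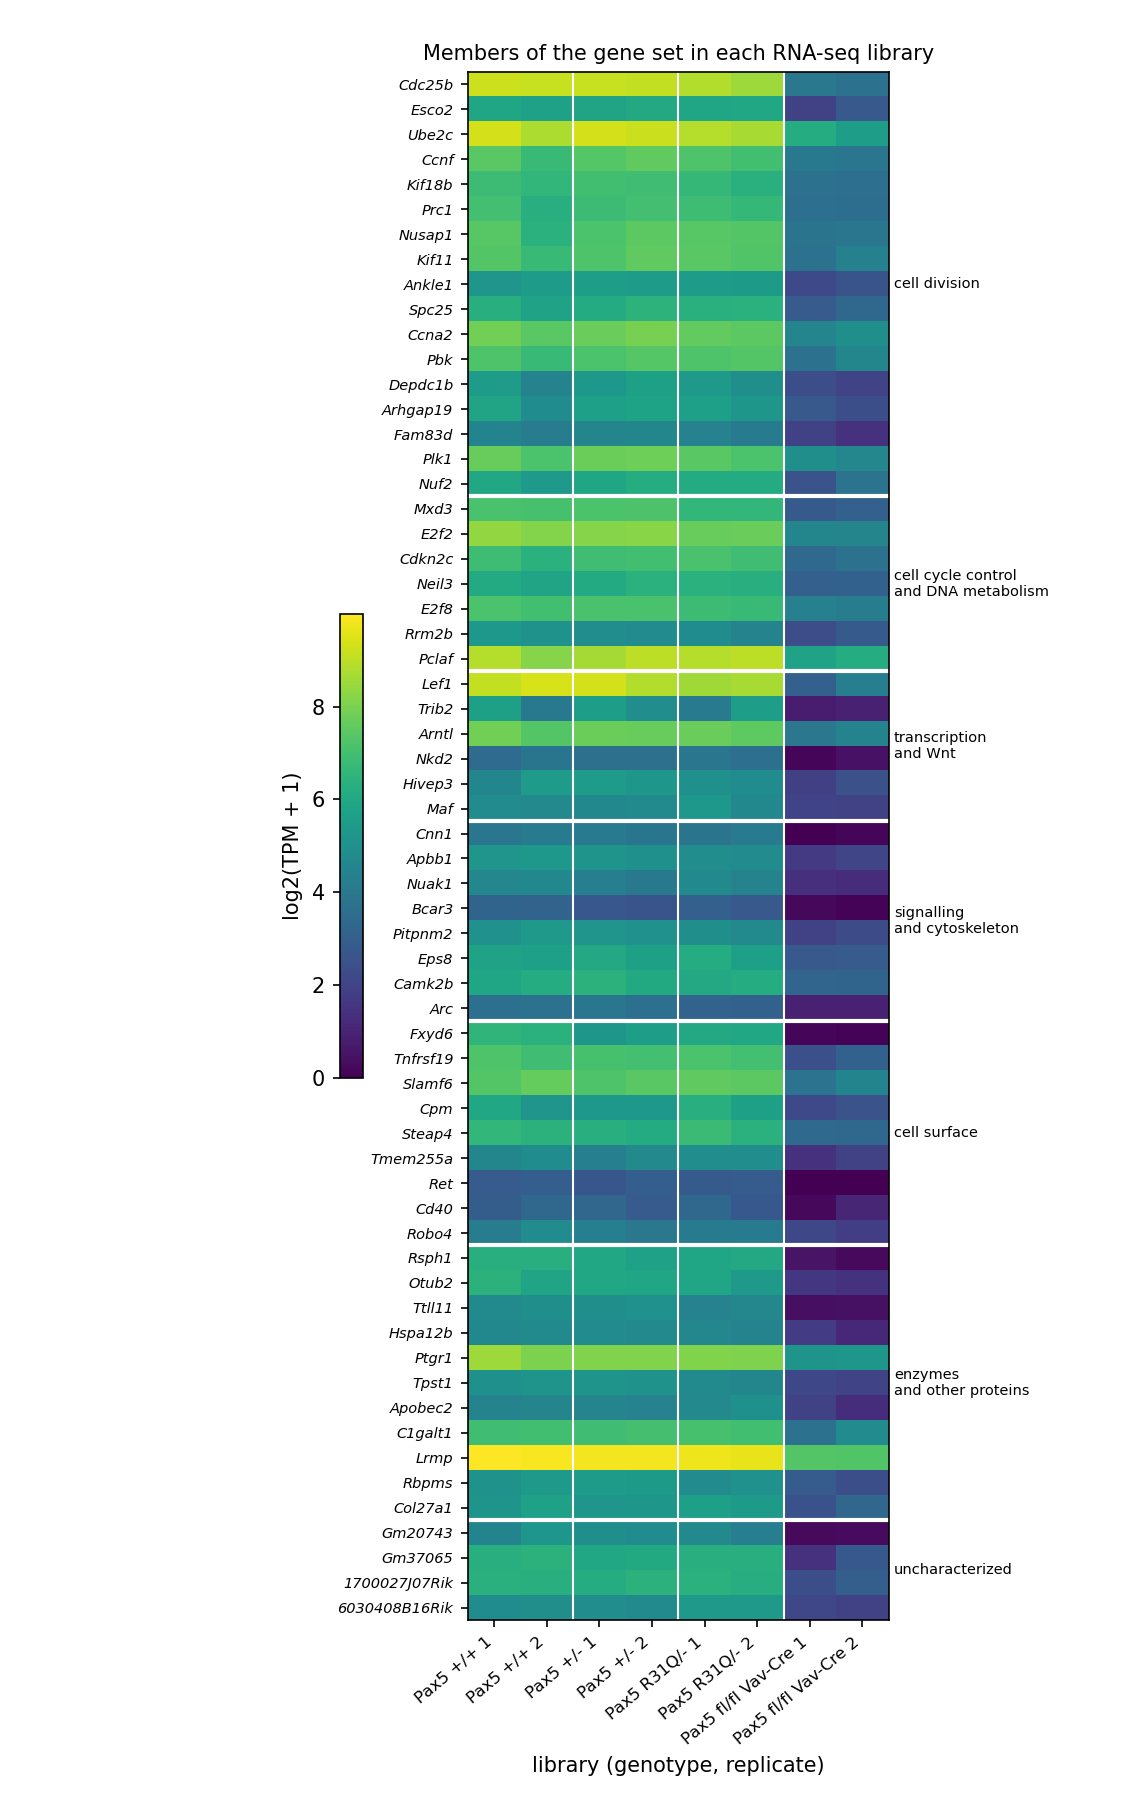
Level of 62 of the 63 members, as log2(TPM + 1), in the 8 RNA-seq libraries, with the genes grouped by role and ordered by their difference in Pax5(fl/fl) Vav-Cre. The 2 right-hand columns are darker than the other 6 in every row, and Lrmp is the highest row with 989 TPM on average in Pax5(+/+).

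At the edge of the rule, Col27a1 and Robo4 were just inside the Pax5(fl/fl) Vav-Cre limit with differences of -2.518 and -2.516, and Fbxo5 and Adgre5 just outside it with -2.472 and -2.446. On the lower R31Q side, E2f2 and Lef1 were inside with -0.576 and -0.589, and Neil1 and Cdkn2d outside with -0.601 and -0.614. On the upper R31Q side, Nusap1 and 6030408B16Rik were inside with 0.477 and 0.478, and Myom2 and Cacna1e outside with 0.627 and 0.816. Ret and Cd40 had the lowest levels in Pax5(+/+), 6.63 and 8.13 TPM.

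The spread between libraries was not small against the R31Q limit. In 39 of the 63 members, each Pax5(R31Q/-) library lay within 0.6 of each Pax5(+/+) library on the log2 scale. In 4 members a pair of such libraries was at least 1 apart. Trib2, a pseudokinase, was the widest of them: it had 50.2 and 15.5 TPM in Pax5(+/+), 46.3 and 28.7 TPM in Pax5(+/-), 16.9 and 46.7 TPM in Pax5(R31Q/-), and 0.689 and 0.9103 TPM in Pax5(fl/fl) Vav-Cre. Its R31Q difference of 0.01 averages Pax5(+/+) libraries that were 1.63 apart on the log2 scale and up to 1.53 from a Pax5(R31Q/-) library, while all 6 libraries with a Pax5 protein were above both libraries of Pax5(fl/fl) Vav-Cre.

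With a single wild-type allele, the members had between 49.3% and 136% of their mean TPM in Pax5(+/+), with a median of 102%. With limma on log2(TPM + 1) over 13436 genes, none of the 63 members was called lower in Pax5(+/-) than in Pax5(+/+) at an adjusted p under 0.05, and none higher, where the background was 0.0223% lower (3 genes) and 0% higher. At an unadjusted p under 0.05, 5 of the 63 members were lower and 0 higher, against 3.15% (423) and 2.91% (391) of all genes tested. The median difference of the members was 0.03, and that over all genes tested was 0.02. Its range ran from -1.01 for Fxyd6 to 0.52 for Depdc1b, and 61 of 63 were under 0.6 in size, as were 95.4% of the genes tested. In 11 members both Pax5(+/-) libraries were below both Pax5(+/+) libraries, and in 7 both were above, beside 14.9% and 21.1% of all genes. All 63 had both Pax5(+/-) libraries above both Pax5(fl/fl) Vav-Cre libraries, beside 40.2% of all genes, but the rule had set the Pax5(fl/fl) Vav-Cre levels low. The absence of calls does not show that the levels were equal: Fxyd6, with the lowest difference, was not called.

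The mutant protein and a single wild-type allele were compared directly, since each genotype has 1 null allele. By limma, 0 of the 63 members passed the threshold between Pax5(R31Q/-) and Pax5(+/-) in either direction, beside a background of 0.35% lower and 0.268% higher. The rule had already bounded the Pax5(R31Q/-) levels around those of Pax5(+/+), which in part fixes these counts and those that follow. At an unadjusted p under 0.05, 10 of the 63 members were lower and 4 higher, against 5.24% (704) and 3.55% (477) of the genes tested. The median difference was -0.04 over the members and 0.01 over all genes tested. Both Pax5(R31Q/-) libraries were below both Pax5(+/-) libraries in 22 members, beside 26% of all genes, and above in 12, beside 29.7%. In the contrast that the rule itself bounded, Pax5(R31Q/-) against Pax5(+/+), limma called 1 member lower, E2f2, and 0 higher, where 2.55% of all genes were lower and 1.62% higher. At an unadjusted p under 0.05 it gave 10 of the 63 lower and 2 higher, against 9.94% (1336) and 8.82% (1185) of all genes. The rule largely fixes these counts, which are given as a description.

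The comparison set of 86 genes gave other values in the same fits. Its median difference was -0.71 between Pax5(+/-) and Pax5(+/+) with 2 genes called lower, and -1.02 between Pax5(R31Q/-) and Pax5(+/-) with 27 called lower. These comparisons share the Pax5(+/+) or the Pax5(R31Q/-) libraries with the rules that formed both sets, so the values stand side by side without a test.

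**Figure D2:**
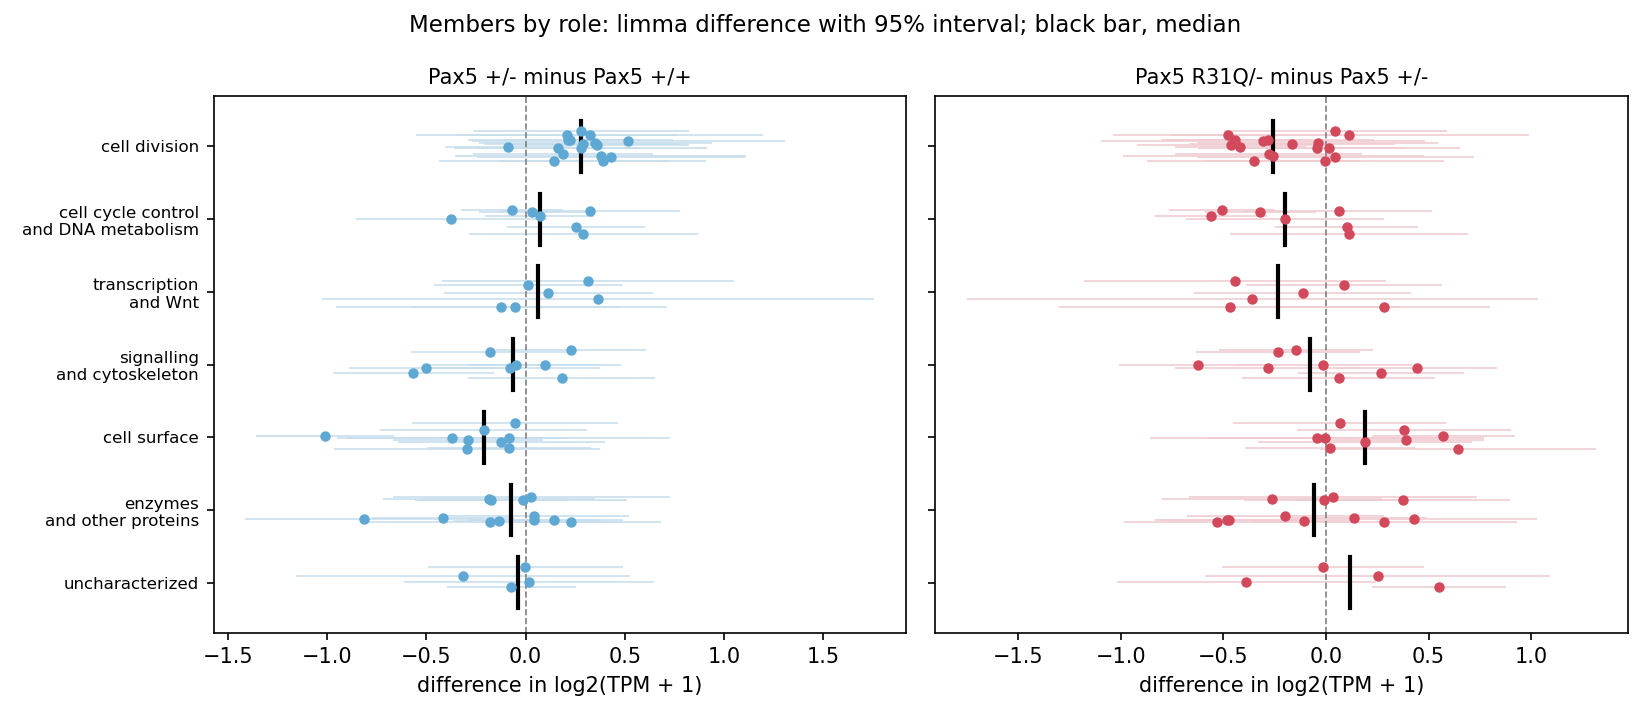
Difference of each member in log2(TPM + 1), with its 95% interval from limma, between Pax5(+/-) and Pax5(+/+) on the left and between Pax5(R31Q/-) and Pax5(+/-) on the right, by role. Black bars are medians over the members of a role, from -0.21 for cell surface genes to 0.28 for cell division genes on the left, and no member passed the adjusted threshold in either panel.

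The members were sorted into roles after they were known. Cell division was the most frequent, with 17 of 63 members, and a list of 27 mitosis genes held 11 of them: Cdc25b, Plk1, Ccna2, Ccnf, Kif11, Nusap1, Prc1, Ube2c, Nuf2, Spc25 and Pbk. The list was chosen with earlier results of these data known, so its count is a description, beside 63 members of the 13436 genes tested. Promoters of many cell division genes carry a cell cycle homology region, with the core TTTGAA, and CCAAT boxes bound by nuclear factor Y. In RefSeq promoters of the GRCm38.p6 build, from 250 bases before to 50 after the start, both motifs were searched for on both strands, 1 promoter per gene. TTTGAA stood in 10 of the 13 cell division members with a promoter in the table and in 4 of the 34 other members found there. It stood in 18% of all 27025 promoters and in 11.9% of the 7977 promoters of genes with at least 5 TPM in Pax5(+/+). CCAAT stood in 10 of the 13, in 13 of the 34, in 37.8% of all promoters and in 39.7% of the 7977. Both together stood in 9 of the 13, in 3 of the 34, in 7.04% of all and in 5.32% of the 7977. Sequences of 3 of the cell division promoters show the arrangement, with both motifs in capitals on whichever strand they read.
Ccnf promoter, chr17:24251360-24251659, minus strand: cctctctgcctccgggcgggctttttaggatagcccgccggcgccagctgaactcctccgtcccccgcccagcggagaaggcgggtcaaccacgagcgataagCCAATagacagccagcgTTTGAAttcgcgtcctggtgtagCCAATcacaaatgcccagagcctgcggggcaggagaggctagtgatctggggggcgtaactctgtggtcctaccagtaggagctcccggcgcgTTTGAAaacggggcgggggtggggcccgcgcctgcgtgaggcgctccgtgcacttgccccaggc
Plk1 promoter, chr7:122159185-122159484, plus strand: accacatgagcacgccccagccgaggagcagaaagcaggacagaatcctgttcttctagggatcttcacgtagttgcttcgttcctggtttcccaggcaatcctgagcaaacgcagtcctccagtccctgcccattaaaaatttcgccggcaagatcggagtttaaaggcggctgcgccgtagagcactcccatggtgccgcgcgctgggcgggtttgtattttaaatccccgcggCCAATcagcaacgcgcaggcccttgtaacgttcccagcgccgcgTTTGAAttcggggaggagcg
Ube2c promoter, chr2:164769679-164769978, plus strand: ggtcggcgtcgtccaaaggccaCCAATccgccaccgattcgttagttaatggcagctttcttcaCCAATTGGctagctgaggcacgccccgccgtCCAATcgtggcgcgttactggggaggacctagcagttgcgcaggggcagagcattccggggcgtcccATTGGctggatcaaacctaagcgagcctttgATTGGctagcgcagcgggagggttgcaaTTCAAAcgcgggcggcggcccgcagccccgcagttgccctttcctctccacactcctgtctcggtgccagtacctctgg
In Plk1 the TTTGAA began 30 bases after the start, with 39 bases between it and the CCAAT upstream. In Ube2c it read on the other strand and began 29 bases before the start, with 23 bases between it and the nearest CCAAT. Ccnf held 2 copies of each motif, and Ube2c held 6 of CCAAT, overlapping ones counted. A match of these letters is a description and not a binding site.

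Cdc25b, the phosphatase that activates cyclin-dependent kinases at entry into mitosis, had the lowest Pax5(fl/fl) Vav-Cre difference of the group. Its levels were 608 and 574 TPM in Pax5(+/+), 573 and 539 TPM in Pax5(+/-), 463 and 374 TPM in Pax5(R31Q/-), and 14.9 and 12.7 TPM in Pax5(fl/fl) Vav-Cre, a difference of -5.33. The Pax5(R31Q/-) libraries were the lowest of the 6 with a Pax5 protein, and the difference from Pax5(+/-) was -0.42 with an SE of 0.14 and an adjusted p of 0.361 by limma. Cdc25b lies on chr2:131186436-131198511 on the plus strand, 40451 bases downstream of Hspa12b, another member.

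The other mitosis members had smaller drops. Ube2c, the ubiquitin-conjugating enzyme of the anaphase-promoting complex, had 645 and 436 TPM in Pax5(+/+), 651 and 578 TPM in Pax5(+/-), 476 and 406 TPM in Pax5(R31Q/-), and 72.4 and 47.96 TPM in Pax5(fl/fl) Vav-Cre. Plk1, a mitotic kinase, had 201 and 141 TPM in Pax5(+/+), 212 and 221 TPM in Pax5(+/-), 172 and 144 TPM in Pax5(R31Q/-), and 30.7 and 23.5 TPM in Pax5(fl/fl) Vav-Cre. Ccnf, cyclin F, had 170.3 and 104 TPM in Pax5(+/+), 163 and 187 TPM in Pax5(+/-), 149.8 and 125.1 TPM in Pax5(R31Q/-), and 15.6 and 14.04 TPM in Pax5(fl/fl) Vav-Cre. In each of these 3 genes Pax5(+/+) replicate 2 was lower than replicate 1, and only in Plk1 did both Pax5(+/-) libraries lie above both of Pax5(+/+). Kif11, a motor that separates spindle poles, Prc1 and Nusap1, which bundle spindle microtubules, and Nuf2 and Spc25, subunits of a kinetochore complex, had Pax5(fl/fl) Vav-Cre differences from -3.01 to -2.53. Nusap1 showed the library gap most, with 168 and 82.8 TPM in Pax5(+/+) and between 144 and 177 TPM in the Pax5(+/-) and Pax5(R31Q/-) libraries. Ccna2, cyclin A2, had 230.3 and 170.5 TPM in Pax5(+/+), 209 and 244 TPM in Pax5(+/-), 195 and 177 TPM in Pax5(R31Q/-), and 22.2 and 30.4 TPM in Pax5(fl/fl) Vav-Cre. Pbk, a mitotic kinase, lies 1205 bases from Esco2, a cohesin acetyltransferase and also a member, and its levels were 129 ± 33.3 TPM in Pax5(+/+) and 17.7 ± 7.34 TPM in Pax5(fl/fl) Vav-Cre (SD, n = 2).

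Other mitosis genes were also low without Pax5. All 27 genes of the list were called lower in Pax5(fl/fl) Vav-Cre than in Pax5(+/+) by limma, beside 19.7% of all genes, a contrast the rule had used for its 11 members. The 16 others had differences from -2.43 to -0.80. In the sum over the 27 genes, the Pax5(+/+) libraries had 5320 and 3613 TPM, the Pax5(+/-) libraries 5064 and 5608 TPM, the Pax5(R31Q/-) libraries 4920 and 4429 TPM, and the Pax5(fl/fl) Vav-Cre libraries 849 and 874 TPM. Every one of the 27 was lower in Pax5(+/+) replicate 2 than in replicate 1. The Pax5(+/-) difference of the cell division members changed with this library. With both libraries, 16 of 17 were above 0 with a median of 0.28, beside 34 of all 63 members and a median of 0.02 over all genes tested. Without Pax5(+/+) replicate 2 the count was 9 of 17 and the median 0.01, while without replicate 1 the median was 0.56. The R31Q median of the group was 0.12 with both libraries and -0.23 without Pax5(+/+) replicate 2.

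**Figure D3:**
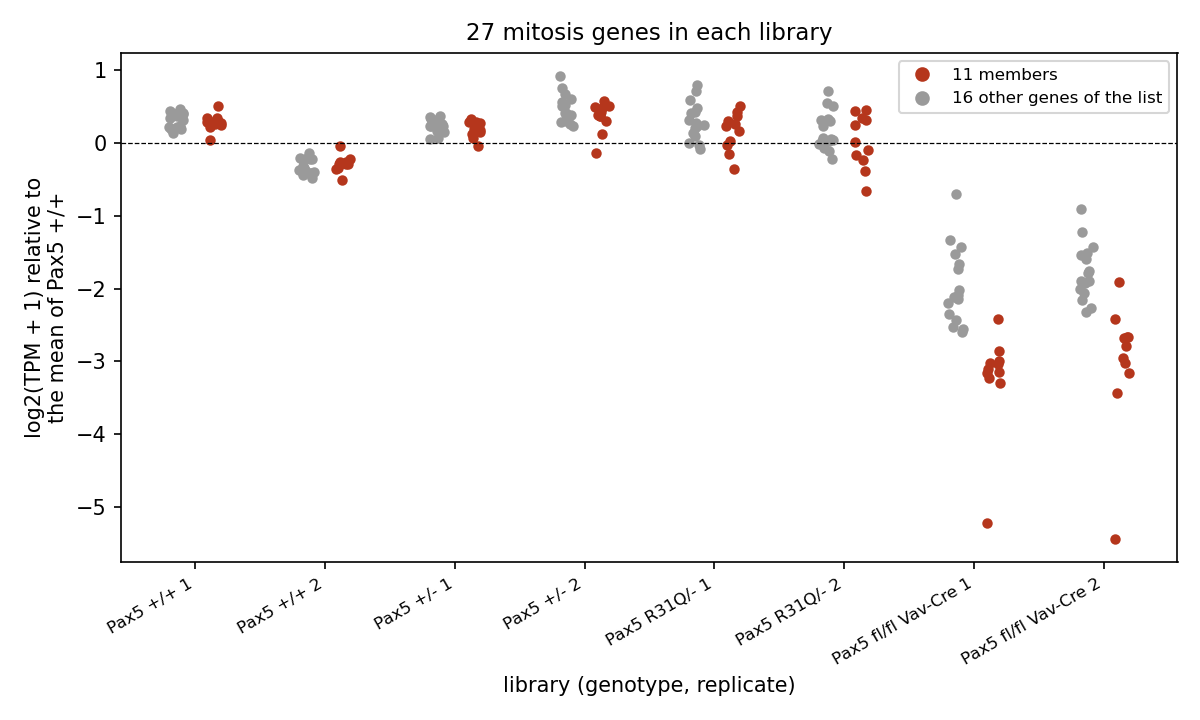
Each of the 27 mitosis genes in each of the 8 libraries, as log2(TPM + 1) relative to the mean of the Pax5(+/+) libraries, with the 11 members in red and the 16 other genes in grey. Pax5(+/+) replicate 2 lies below 0 for all 27 genes, and the Pax5(fl/fl) Vav-Cre libraries lie lowest, with Cdc25b below the rest.

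Control of the cell cycle and DNA metabolism gave 7 members, 2 of them E2F factors. E2f2, a transcription factor of the S phase program and a gene of the list of B lymphopoiesis factors, had 331 and 284 TPM in Pax5(+/+), 286 and 299 TPM in Pax5(+/-), 202 and 209 TPM in Pax5(R31Q/-), and 23.2 and 22.5 TPM in Pax5(fl/fl) Vav-Cre. Mxd3, a partner of Max that counters Myc, had 140.3 and 135 TPM in Pax5(+/+), 141 and 148 TPM in Pax5(+/-), 98.4 and 97.4 TPM in Pax5(R31Q/-), and 6.14 and 7.41 TPM in Pax5(fl/fl) Vav-Cre. In both genes the Pax5(R31Q/-) libraries lay below all 4 libraries with a wild-type allele, without overlap. For Mxd3 the difference from Pax5(+/-) was -0.56 with an SE of 0.12 and an adjusted p of 0.113 by limma, and it passed the threshold under other processing (adjusted p of 0.0455 after median-ratio scaling and 0.0479 with limma-voom on recovered reads). For E2f2 it was -0.51 with an SE of 0.11 and an adjusted p of 0.132.

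Cdkn2c, the inhibitor of cyclin-dependent kinases 4 and 6 that is also called p18, was 1 of 7 genes on the list of such inhibitors. It had 118 and 81.8 TPM in Pax5(+/+), 121 and 125.5 TPM in Pax5(+/-), 139 and 119.5 TPM in Pax5(R31Q/-), and 9.56 and 12.3 TPM in Pax5(fl/fl) Vav-Cre. The set thus held a brake of the cycle beside genes that carry it out. Pclaf, which binds the replication clamp, had 474 and 291 TPM in Pax5(+/+), 402 and 515 TPM in Pax5(+/-), 469 and 516 TPM in Pax5(R31Q/-), and 53.7 and 71.7 TPM in Pax5(fl/fl) Vav-Cre. The remaining members here were E2f8, the DNA glycosylase Neil3 and the ribonucleotide reductase subunit Rrm2b.

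Lef1, the transcription factor that mediates Wnt signals and a known regulator of pro-B cell growth, was among the strongest members by both level and drop. It had 537 and 669 TPM in Pax5(+/+), 659 and 460.3 TPM in Pax5(+/-), 383 and 414 TPM in Pax5(R31Q/-), and 7.41 and 18.2 TPM in Pax5(fl/fl) Vav-Cre. The Pax5(R31Q/-) libraries were the lowest of those with a Pax5 protein, while the 2 Pax5(+/-) libraries spanned a wider range than the gap between genotypes, and the difference of -0.47 had a 95% interval from -1.30 to 0.37. A Rag2(-/-) Pax5 peak of 411 bases, met by a Pax5(R31Q/-) peak, lay 22 bases upstream of its start by midpoint.

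Of the 18 genes on the Wnt list, Lef1, Nkd2 and Trib2 were members. Nkd2, an inhibitor of Dishevelled, had 10.3 and 13.7 TPM in Pax5(+/+), 12.1 and 11.9 TPM in Pax5(+/-), 14.2 and 11.5 TPM in Pax5(R31Q/-), and 0.124 and 0.388 TPM in Pax5(fl/fl) Vav-Cre. Of the 16 tested Wnt genes, 0 were called in either direction in Pax5(+/-) against Pax5(+/+), beside 0.0223% lower and 0% higher of all genes. In Pax5(R31Q/-) against Pax5(+/-), 1 was lower and 0 higher, beside 0.35% and 0.268%. Arntl, the clock factor also called Bmal1, had 235 and 159 TPM in Pax5(+/+), 214 and 204 TPM in Pax5(+/-), 207 and 179.8 TPM in Pax5(R31Q/-), and 14.4 and 21.3 TPM in Pax5(fl/fl) Vav-Cre. Maf and Hivep3, both DNA-binding factors, completed this role, and Hivep3 had 23.1 and 45.7 TPM in Pax5(+/+), a range that held all 4 Pax5(+/-) and Pax5(R31Q/-) libraries.

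At the cell surface, Fxyd6, a small membrane protein that modulates the sodium-potassium pump, had the largest drop of all members. It had 92.2 and 82.6 TPM in Pax5(+/+), 38.2 and 47.96 TPM in Pax5(+/-), 65.1 and 63.1 TPM in Pax5(R31Q/-), and 0.111 and 0.07898 TPM in Pax5(fl/fl) Vav-Cre. The 4 groups did not overlap, and the Pax5(R31Q/-) libraries lay between Pax5(+/+) and Pax5(+/-). The difference of Pax5(+/-) from Pax5(+/+) was -1.01 with an SE of 0.15 and an adjusted p of 0.0960 by limma, and it passed with limma-voom on recovered reads (adjusted p of 0.0404). Pax5(R31Q/-) was 0.57 above Pax5(+/-) with an SE of 0.15 and an adjusted p of 0.216. Fxyd6 lies on chr9:45369470-45396159 on the plus strand and had no Rag2(-/-) Pax5 peak in or within 5 kb of its body. It was the only member among 316 tested genes taken as channels, pumps and transporters by symbol alone. These symbols start with Slc, Scn, Cacn, Kcn, Atp1, Abc, Trp or Fxyd, which can take in other genes. Members were 63 of all 13436 genes tested.

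Tnfrsf19, a receptor of the TNF receptor family, had 150.1 and 122 TPM in Pax5(+/+), 133 and 127 TPM in Pax5(+/-), 144 and 129 TPM in Pax5(R31Q/-), and 4.36 and 7.69 TPM in Pax5(fl/fl) Vav-Cre. The 6 libraries with a Pax5 protein overlapped and all lay far above the others. Slamf6, a receptor of the SLAM family, had 158 and 195 TPM in Pax5(+/+), 151 and 172 TPM in Pax5(+/-), 189.5 and 178 TPM in Pax5(R31Q/-), and 13.05 and 21.8 TPM in Pax5(fl/fl) Vav-Cre. Its gene overlaps Gm37065, a noncoding member on the other strand, over 1899 bases, and since strand use in counting is not stated, reads there cannot be told apart. Gm37065 had 74.98 and 85.9 TPM in Pax5(+/+), 62.7 and 65.98 TPM in Pax5(+/-), 77.3 and 76.1 TPM in Pax5(R31Q/-), and 1.69 and 5.74 TPM in Pax5(fl/fl) Vav-Cre.

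Cd40, the costimulatory receptor of B cells, was expressed near the lower limit, with 6.73 and 9.53 TPM in Pax5(+/+), 8.96 and 6.24 TPM in Pax5(+/-), 9.13 and 5.68 TPM in Pax5(R31Q/-), and 0.168 and 1.11 TPM in Pax5(fl/fl) Vav-Cre. Cd40 and Slamf6 were the only members among 26 B cell surface receptors. The receptor tyrosine kinase Ret had 6.26 and 7.001 TPM in Pax5(+/+), 5.44 and 7.02 TPM in Pax5(+/-), 6.12 and 6.44 TPM in Pax5(R31Q/-), and 0.0136 and 0.00964 TPM in Pax5(fl/fl) Vav-Cre. The others were Robo4, a guidance receptor of endothelium, Cpm, a carboxypeptidase, Steap4, a metalloreductase, and Tmem255a. All 9 surface members had a Pax5(+/-) difference from Pax5(+/+) below 0, as had 29 of all 63 members and 5902 of the 13436 genes tested. Their median difference was -0.21, none passed singly by limma, and the group was formed after the members were known. Without Pax5(+/+) replicate 2, 7 of the 9 were below 0 with a median of -0.07.

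**Figure D4:**
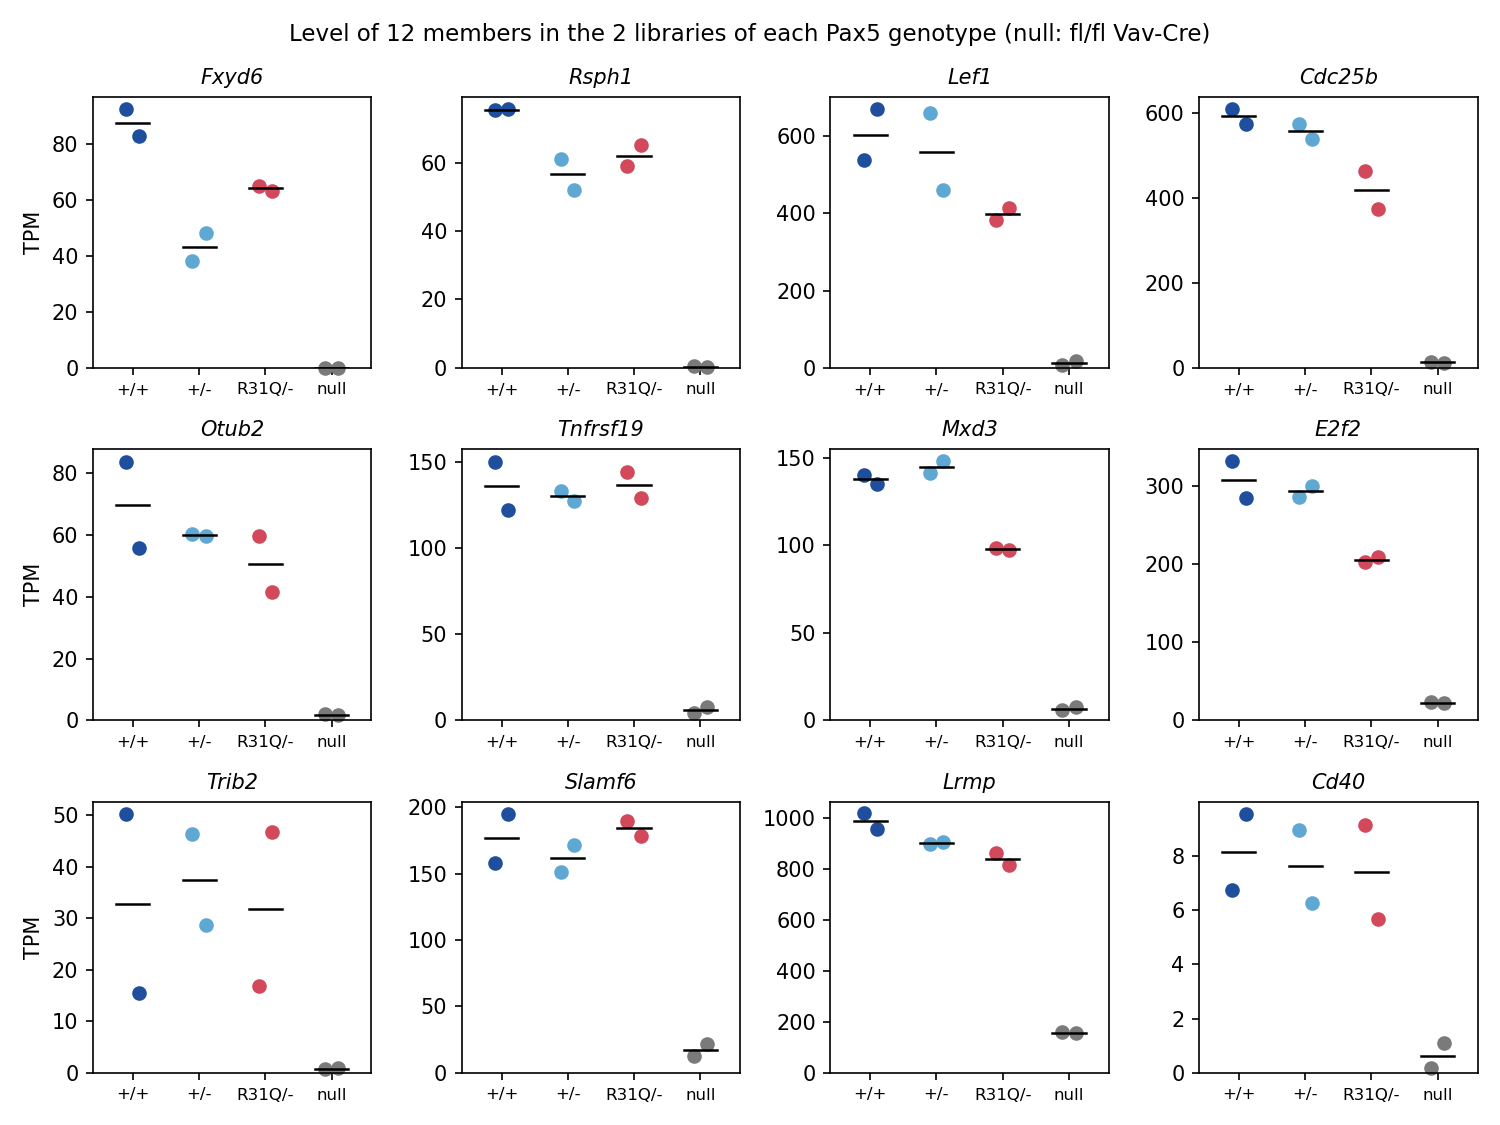
TPM of 12 members in each library, on an axis from 0 in each panel, with a bar for the mean of the 2 libraries of a genotype. Fxyd6 has its Pax5(R31Q/-) points between those of Pax5(+/+) and Pax5(+/-), Mxd3 and E2f2 have theirs below both, and Trib2 has a wide gap between libraries of 1 genotype.

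Among enzymes and other proteins, Lrmp, a membrane protein of the endoplasmic reticulum in lymphocytes, had the highest level of any member. It had 1020.1 and 957 TPM in Pax5(+/+), 899 and 904 TPM in Pax5(+/-), 861 and 813 TPM in Pax5(R31Q/-), and 161 and 155 TPM in Pax5(fl/fl) Vav-Cre. Its R31Q libraries were the lowest of the 6, and its level without Pax5 was also the highest of any member, 158 ± 4.15 TPM (SD, n = 2). Rsph1, a protein of the radial spoke of motile cilia, had 75.4 and 75.5 TPM in Pax5(+/+), 61.2 and 51.8 TPM in Pax5(+/-), 59.03 and 64.99 TPM in Pax5(R31Q/-), and 0.452 and 0.192 TPM in Pax5(fl/fl) Vav-Cre, with both other genotypes below Pax5(+/+). Its body shares 4663 bases with Ubash3a on the other strand.

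Bcar3, an adaptor of tyrosine kinase signaling, was among the members with the lowest Pax5(+/-) difference, with 8.42 and 8.17 TPM in Pax5(+/+), 5.61 and 4.97 TPM in Pax5(+/-), 7.28 and 5.91 TPM in Pax5(R31Q/-), and 0.159 and 0.0565 TPM in Pax5(fl/fl) Vav-Cre. Its difference was -0.57 with an SE of 0.17 and an adjusted p of 0.532. At the other end, Depdc1b, which is linked to cell division, had 44.9 and 21.3 TPM in Pax5(+/+), 39.7 and 50.6 TPM in Pax5(+/-), 41.9 and 30.9 TPM in Pax5(R31Q/-), and 4.33 and 3.13 TPM in Pax5(fl/fl) Vav-Cre. Nusap1 and Ccnf followed it with differences of 0.43 and 0.39, and in all 3 genes Pax5(+/+) replicate 2 was the lowest library with a Pax5 protein.

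Otub2, a deubiquitinating enzyme, had 83.8 and 56.01 TPM in Pax5(+/+), 60.4 and 59.8 TPM in Pax5(+/-), 59.8 and 41.7 TPM in Pax5(R31Q/-), and 2.04 and 1.77 TPM in Pax5(fl/fl) Vav-Cre. Ttll11, a tubulin glutamylase, had 26.4 and 30.4 TPM in Pax5(+/+), 30.6 and 32.2 TPM in Pax5(+/-), 20.8 and 23.5 TPM in Pax5(R31Q/-), and 0.344 and 0.377 TPM in Pax5(fl/fl) Vav-Cre, so that the R31Q libraries lay below the other 4 with a Pax5 protein. Apobec2, a relative of the activation-induced deaminase, was the only member of the 5 genes of its family, with 21.1 and 22.3 TPM in Pax5(+/+), 22.5 and 20.6 TPM in Pax5(+/-), 25.2 and 31.6 TPM in Pax5(R31Q/-), and 2.78 and 1.45 TPM in Pax5(fl/fl) Vav-Cre. The other members of this role were Ptgr1, Tpst1, C1galt1, Hspa12b, Rbpms and Col27a1. Signaling and the cytoskeleton gave Cnn1, Apbb1, Nuak1, Bcar3, Pitpnm2, Eps8, Camk2b and Arc, whose Pax5(fl/fl) Vav-Cre differences ran from -3.94 to -2.75.

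Uncharacterized members were 4, and Gm20743 had the lowest levels without Pax5 of them. It had 22.1 and 37.6 TPM in Pax5(+/+), 30.1 and 28.3 TPM in Pax5(+/-), 26.8 and 18.2 TPM in Pax5(R31Q/-), and 0.188 and 0.223 TPM in Pax5(fl/fl) Vav-Cre. Of 6030408B16Rik, the Pax5(R31Q/-) libraries, 41.17 and 39.99 TPM, were above all others, with 28.4 and 29.3 TPM in Pax5(+/+) and 29.1 and 25.8 TPM in Pax5(+/-), and the difference from Pax5(+/-) was 0.55 with an SE of 0.14 and an adjusted p of 0.199 by limma.

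None of the 63 was on the lists of pre-B and B cell receptor components (31 genes), pro-B cell markers (12), pre-B cell markers (8), the sort gate (6), or markers of erythroid (10), myeloid (15), T (8), NK (6) and plasma cells (6). Members were 63 of the 13436 genes tested, so lists this short would hold few or none at that share. Ighm and Ighd of the sort gate are immunoglobulin genes, which the rule leaves out. The list of 24 transcription factors of B lymphopoiesis held Lef1 and E2f2. Over these lists, Pax5(+/-) differed from Pax5(+/+) by limma in 1 surface receptor, which was lower, and in no gene of the other lists.

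In the ChIP-seq data, 42 of the 63 members (66.7%) had a Rag2(-/-) Pax5 peak within 1 kb of an annotated start, and in 37 of the 42 (88.1%) at least 1 such peak was met by a Pax5(R31Q/-) peak over at least 1 base. In the comparison set the counts were 49 of 86 (57.0%) and 31 of 49 (63.3%). Among all genes with at least 5 TPM in Pax5(+/+) that matched the annotation, they were 7709 of 9891 (77.9%) and 7462 of 7709 (96.8%). The members thus lay between the comparison set and expressed genes in both shares at this window and overlap, values given without a test. With 1 library per genotype there is no replicate of the peaks, and the peak lists hold no height, so a shared peak may still differ in strength.

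The peaks of 5 members were not met: those of Pclaf, Eps8, Gm20743, Hspa12b and Cd40. Cd40 did have a Pax5(R31Q/-) peak within 1 kb of a start, which did not overlap the Rag2(-/-) peak, and the other 4 had none. Their 6 peaks at start sites were between 288 and 380 bases wide, below the median of 480 bases over the 50 peaks of the members. When only peaks of at least 400 bases were taken, 29 members had a Rag2(-/-) peak and all 29 were met, beside 98.3% of expressed genes and 72.4% of the comparison set. Levels of these 5 genes in Pax5(R31Q/-) were between 75.3% and 129% of Pax5(+/+). For Eps8, a regulator of actin, the libraries had 52.9 and 48.4 TPM in Pax5(+/+), 72.8 and 49.6 TPM in Pax5(R31Q/-), and 5.96 and 6.25 TPM in Pax5(fl/fl) Vav-Cre. For Hspa12b, an atypical relative of the Hsp70 chaperones, they had 24.1 and 26.6 TPM, 24 and 21.3 TPM, and 2.303 and 1.226 TPM in the same order. In 4 others, Ankle1, E2f2, Nusap1 and Otub2, only a Pax5(R31Q/-) peak stood within 1 kb of a start, as in 4 of the 86 comparison genes and 761 of the 9891 expressed genes. Including the gene body and 5 kb on each side, 56 of 63 members (88.9%) had a Rag2(-/-) peak. That share was 89.5% in the comparison set and 88.6% in expressed genes, so the order seen at 1 kb did not hold for it. Members without such a peak included 6030408B16Rik, Ankle1, Bcar3, Camk2b, Fxyd6 and Pbk. Hivep3 had the most Rag2(-/-) peaks with 17, of which 8 were met, and Lef1 had 7, of which 6 were met.

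The letters GCNTGAC, the core of the DNA sequence that the Pax5 paired domain contacts, were searched on both strands in the 300 bases around each peak midpoint. They stood in 8 of the 50 start-site peaks of members (16%), in 10 of 58 of the comparison set (17.2%) and in 14.8% of 7836 peaks at expressed genes. In members the share was 7 of 43 where a Pax5(R31Q/-) peak met the peak and 1 of 7 where none did. These shares were close to that at expressed genes, and a match of so short a sequence is a description and not a binding site. The peak of Cpm is shown as the example with the motif in capitals, here on the other strand: the peak was 496 bases wide, was met by a Pax5(R31Q/-) peak and lay 166 bases upstream of the start by midpoint. Cpm had 63.3 and 36.6 TPM in Pax5(+/+), 38.96 and 39.1 TPM in Pax5(+/-), 75.5 and 50.1 TPM in Pax5(R31Q/-), and 3.57 and 4.84 TPM in Pax5(fl/fl) Vav-Cre.
Cpm peak window, chr10:117629184-117629483, plus strand: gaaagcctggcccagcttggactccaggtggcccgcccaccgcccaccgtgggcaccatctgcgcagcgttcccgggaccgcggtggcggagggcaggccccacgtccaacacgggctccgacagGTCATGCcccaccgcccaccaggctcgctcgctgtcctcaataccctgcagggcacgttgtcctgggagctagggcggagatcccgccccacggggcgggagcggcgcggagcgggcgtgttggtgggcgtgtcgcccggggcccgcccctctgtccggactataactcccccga

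**Figure D5:**
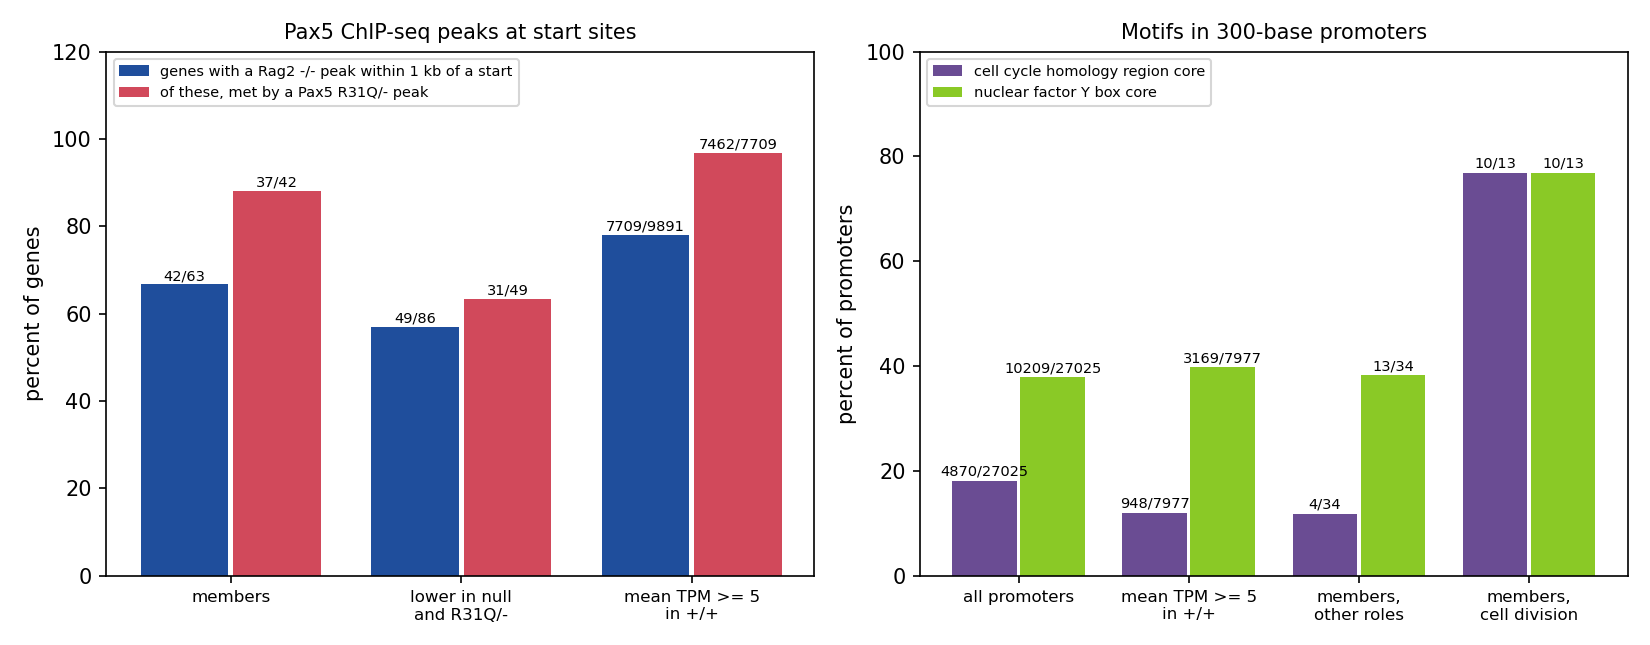
Left, percent of genes with a Rag2(-/-) Pax5 peak within 1 kb of a start and, of those, percent met by a Pax5(R31Q/-) peak, for the 63 members, the 86 genes of the comparison set and expressed genes. Right, percent of 300-base promoters with TTTGAA or CCAAT, with 10 of the 13 cell division members holding each.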

How the data were processed

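RNA-seq of 8 libraries and Pax5 ChIP-seq of 2 were used. The TPM values were made by the authors from reads aligned with STAR 2.4.2 to GRCm38/mm10 and counted on RefSeq genes, with the use of strand not stated. The deposited peak lists, which the authors called with MACS per library, hold a start and an end per peak. Libraries were grouped by labelled genotype. Members, gene lists and roles were chosen with earlier results of these data known. limma 3.58.1 in R 4.3.3 was fitted on log2(TPM + 1) of all 8 libraries with genotype as the term and a variance trend, over 13436 genes, with Benjamini-Hochberg adjustment. Genes below 1 TPM in all libraries were left out. All 18206 genes with a value over 0 in 2 or more libraries gave whole reads from their TPM values, at most 5.82e-10 reads from a whole number, and these reads were used for limma-voom. All 63 members matched GRCm38.p6 RefSeq genes, and 26 overlap a gene on the other strand, whose reads cannot be told apart. Promoters came from RefSeq and peak sequence from GRCm38.p6. Named members were those with the lowest Pax5(fl/fl) Vav-Cre difference, the highest level, the lowest and highest Pax5(+/-) difference, those on the gene lists, those at the limits of the rule and those with an unmet peak. Members that stood out after values were seen, among them 6030408B16Rik, Arntl, Hivep3, Trib2, Ret, E2f2, Mxd3 and Cpm, were named as well. Alternatives changed the pseudocount, filter, scaling, variance model, limits of the rule, peak window and overlap, and left out each library. Python 3.11.15 with pandas 2.3.3 was used. Values of 1 member and of 1 marker of the gate are not reported here.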

Additional observations from a re-analysis of the deposited data

How the results depend on the processing

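In both comparisons with Pax5(+/-), the counts of members called were 0 in each direction under all alternatives run except 3: 1 member (Fxyd6) was lower in Pax5(+/-) than in Pax5(+/+) with limma-voom on recovered reads, and 1 member (Mxd3) was lower in Pax5(R31Q/-) than in Pax5(+/-) with limma-voom and 1 (Mxd3) after median-ratio scaling. The median difference of the members between Pax5(+/-) and Pax5(+/+) stayed within the spread of the library medians and ran from -0.01 to 0.05 when single libraries were left out. Where that left 1 library in a genotype, it was assumed to vary like the others. The number of members was 95 with a pseudocount of 0.1, 138 with a limit of -2 and 34 with a limit of -3 for Pax5(fl/fl) Vav-Cre, and 37 with a limit of 0.3 and 93 with a limit of 1 for R31Q. Without single libraries it was between 55 and 82, and without Pax5(+/+) replicate 1 it was 55, of which 48 were among the 63. Without Pax5(+/+) replicate 2 it was 82, of which 53 were. Counts at start sites were between 29 and 44 members with a peak and between 29 and 39 met. Over the gene body and 5 kb on each side they were 56 (88.9%) and, of these, 47 (83.9%). The same shares were 88.6% and 94.7% for expressed genes and 89.5% and 76.6% for the comparison set. No paired analysis was possible because the labels give no replicate numbers, and the numbers printed here only name libraries in the order in which they are listed. The background counts over all genes moved more. Against 3 genes lower in Pax5(+/-) than in Pax5(+/+), there were 25 with limma-voom, 23 with no filter on low TPM, 22 without the variance trend, and between 0 and 7 under the others. For Pax5(R31Q/-) against Pax5(+/-), beside 47 lower and 36 higher genes, there were 109 and 79 with limma-voom and 19 and 18 with no filter. The counts were 0 and 0 without Pax5(+/-) replicate 1 or without either Pax5(R31Q/-) replicate, 6 and 2 without Pax5(+/-) replicate 2, 21 and 13 without Pax5(+/+) replicate 1, and 22 and 14 without replicate 2. The cause was not tested.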
